A study of Mus musculus with 14 samples.

Results

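The 10 genes described here encode the core of cytokine signal transduction in T cells: the Janus kinases Jak1 and Jak3, the transcription factors Stat3, Stat4, Stat5a and Stat5b, and the feedback inhibitors Cish, Socs1, Socs2 and Socs3. They were chosen by symbol, with earlier results of these data known. All 10 were found among the 50508 gene symbols of both deposited count tables. Their levels were read in 10 libraries of bulk RNA sequencing, 2 in each of 5 groups of sorted mouse T cells, in a study of αβ killer innate-like T cells (ILTCk) and the progenitors they come from in the thymus. NK1.1+ ILTCk were sorted from tumours as CD45+ TCRβ+ cells that lacked TCRγδ, CD4 and PD-1 and carried CD8α and NK1.1. NK1.1- ILTCk shared a count table with them, but the labels used here state neither their gate nor their tissue, and an origin from tumours is assumed. For both groups the titles and source names say ILTCk while the cell type field says ILTCkP, and the titles were followed. PD1+ Tconv, conventional T cells, were sorted from tumours with the same markers as NK1.1+ ILTCk except that they carried PD-1 and lacked NK1.1. These 3 groups are labelled retrogenic, a term for mice whose blood system was rebuilt from stem cells carrying an introduced T cell receptor. Neither that receptor nor the tumour is named in the labels used here. ILTCkP, the progenitors, came from the thymus of C57BL/6 mice and were sorted by low or absent CD4 and CD8α and by no binding of CD1d loaded with PBS-57, with a gate that the labels used here give only in part. CD8SP were conventional CD8 single-positive thymocytes of C57BL/6 mice. Age, sex and any pooling of mice are not stated. The 4 single-cell libraries of the series were not analysed here.

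Cytokines of the common gamma-chain family, such as IL-2, IL-7 and IL-15, bring together receptor chains that carry JAK1 and JAK3. The kinases phosphorylate each other and the receptor, and a STAT protein docks, is phosphorylated, pairs and enters the nucleus. STAT5 is the main factor downstream of IL-2, IL-7 and IL-15, STAT3 downstream of IL-6, IL-10 and IL-21, and STAT4 downstream of IL-12. Among the genes that STATs switch on are their own inhibitors: CISH and SOCS2 occupy phosphorylated receptor tails, while SOCS1 and SOCS3 also block the kinases, and these transcripts are known to follow cytokine stimulation. In lymphocytes CISH is known as a brake on IL-2 and IL-15 responses, SOCS1 on interferon-γ and gamma-chain cytokines, and SOCS3 on receptors that use gp130.

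The promoters of Cish and Socs3 are shown because all tumour-table libraries of both genes lay above the thymic ones. The RefSeq promoter table on GRCm38.p6, which gives 250 bases before and 50 after each transcription start, held 9 of the 10 genes, all but Socs2, in 12 windows. The letters TTCNNNGAA, which STAT dimers are known to bind and which read the same on both strands, were present in the windows of 2 genes, Cish and Socs3. In all, 8.30% of the 32851 windows of the table hold these letters at least once and 0.457% at least 2 times. Counted by gene, as for the members, the shares are 9.55% and 0.540% of 27025 genes. Matches are in capitals.
Cish, chr9:107296409-107296708, plus strand: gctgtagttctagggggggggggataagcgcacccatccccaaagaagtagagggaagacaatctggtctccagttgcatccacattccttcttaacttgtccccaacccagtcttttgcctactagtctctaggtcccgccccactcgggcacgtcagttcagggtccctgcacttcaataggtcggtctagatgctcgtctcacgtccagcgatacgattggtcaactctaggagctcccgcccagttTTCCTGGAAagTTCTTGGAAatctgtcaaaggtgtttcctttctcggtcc
Socs3, chr11:117969317-117969616, minus strand: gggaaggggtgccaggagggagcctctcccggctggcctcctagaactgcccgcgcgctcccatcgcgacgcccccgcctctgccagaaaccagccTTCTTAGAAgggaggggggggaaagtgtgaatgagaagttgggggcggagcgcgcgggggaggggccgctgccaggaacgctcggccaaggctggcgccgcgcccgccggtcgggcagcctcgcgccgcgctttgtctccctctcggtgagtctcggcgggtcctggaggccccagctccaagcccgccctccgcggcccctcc
Cish held 2 matches, TTCCTGGAA and TTCTTGGAA, at bases 251 and 262 of its window, and Socs3 held 1, TTCTTAGAA, at base 97. The windows of Jak1, Jak3, Stat3, Stat4, Stat5a, Stat5b and Socs1 do not hold these letters. A match is a description of the sequence and was not tested for binding.

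On GRCm38 (GENCODE M21), Stat5b (chromosome 11, 100780731 to 100850724, minus strand), Stat5a (100859351 to 100885169, plus strand) and Stat3 (100885098 to 100939540, minus strand) lie side by side, and the ends of Stat5a and Stat3 overlap. Jak1 lies on chromosome 4 (101152367 to 101265282), Jak3 on chromosome 8 (71676296 to 71690575), Stat4 on chromosome 1 (51987148 to 52107189) and Cish on chromosome 9 (107296026 to 107302784). Socs1 lies on chromosome 16 (10782240 to 10785536), Socs2 on chromosome 10 (95385362 to 95417180) and Socs3 on chromosome 11 (117966079 to 117970047). Part of the reads of some members could have been assigned to other genes or left out. Of the distinct 50-base windows of each gene's transcripts, 11.0% of Stat5b and 8.52% of Stat5a were shared with another member, 608 of them by both, so the split between the STAT5 genes is uncertain. Stat4 shared 21.7% of its windows with Gm28177, a transcript on the same strand. Cish shared 9.35% with other genes, mostly a pseudogene and an antisense transcript on the opposite strand, and Jak3 shared 7.21%, mostly with the adjoining Insl3. Socs2 shared 4.58% and Stat3 0.318% with genes outside the 10, while Jak1, Socs1 and Socs3 shared none. Whether reads were counted by strand is not stated.

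The libraries held 16530085 to 32097301 counts, and each of the 10 genes passed the filter on low counts in both tables. All 7 T cell markers (Cd3d, Cd3e, Cd3g, Cd247, Trac, Cd2, Lck) were detected in every library, but their summed level varied. In CPM (a gene's counts scaled to a common library size), NK1.1+ ILTCk had 2930 and 613, NK1.1- ILTCk 1535 and 1089, PD1+ Tconv 4710 and 3009, ILTCkP 7341 and 7004, and CD8SP 10054 and 9020. All 10 macrophage markers (Csf1r, C1qa, C1qb, C1qc, Cd68, Adgre1, Lyz2, Fcgr1, Mrc1, Itgam) were detected in each tumour-table library: NK1.1+ ILTCk had a sum of 6325 and 17685 CPM, NK1.1- ILTCk 2896 and 2524, and PD1+ Tconv 132 and 885. In the thymic libraries 5 to 8 of them were detected, at a sum of 18.5 to 29.0 CPM. Secretory gland markers summed to between 1358 and 300033 CPM in the tumour table, the highest in PD1+ Tconv replicate 2, and to at most 0.241 CPM in the thymus. In such bulk samples fewer cells of a type and less RNA per cell cannot be told apart. No label says that replicates are separate mice, and the p-values then reflect the spread of these libraries alone, which may be technical.

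Kinase and STAT genes led the order of levels in the thymic groups, while Socs3 and Cish were among the first 4 in both ILTCk groups. Levels of different genes are compared here as CPM per kilobase of exon, given as mean ± SD of 2 libraries. In ILTCkP the order began with Jak1 (79.5 ± 55.7), Jak3 (61.7 ± 5.56), Stat5b (59.4 ± 2.39), Stat3 (46.8 ± 3.35) and Stat5a (32.5 ± 9.36 CPM per kilobase). Jak1, Jak3 and Stat5b did not separate beyond their libraries, while Stat5b lay above Stat3 and Stat3 above Stat5a in both. All 4 feedback genes stood below these, from Cish (8.94 ± 2.23) down to Socs2 (0.214 ± 0.0159). CD8SP kept the same first 3 genes, with Jak1 at 119 ± 19.5 and Socs2 last at 0.0492 ± 0.0226 CPM per kilobase. In NK1.1+ ILTCk the order began with Socs3 (50.4 ± 44.9), Jak1 (31.4 ± 15.8), Stat3 (31.3 ± 3.22) and Cish (29.6 ± 25.8 CPM per kilobase), none of which separated from its neighbour. NK1.1- ILTCk had the same 4 genes on top, at 31.3 ± 2.03 for Jak1, 28.9 ± 2.04 for Stat3, 24.5 ± 9.83 for Socs3 and 19.1 ± 11.0 CPM per kilobase for Cish. In PD1+ Tconv the first genes were Jak1 (80.0 ± 42.9), Cish (49.7 ± 19.5) and Stat3 (39.4 ± 7.89), and here Socs1 reached 20.8 ± 7.25 and Socs3 16.9 ± 1.83 CPM per kilobase. Socs2 was the lowest of the 10 in all 5 groups.

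**Figure D1:**
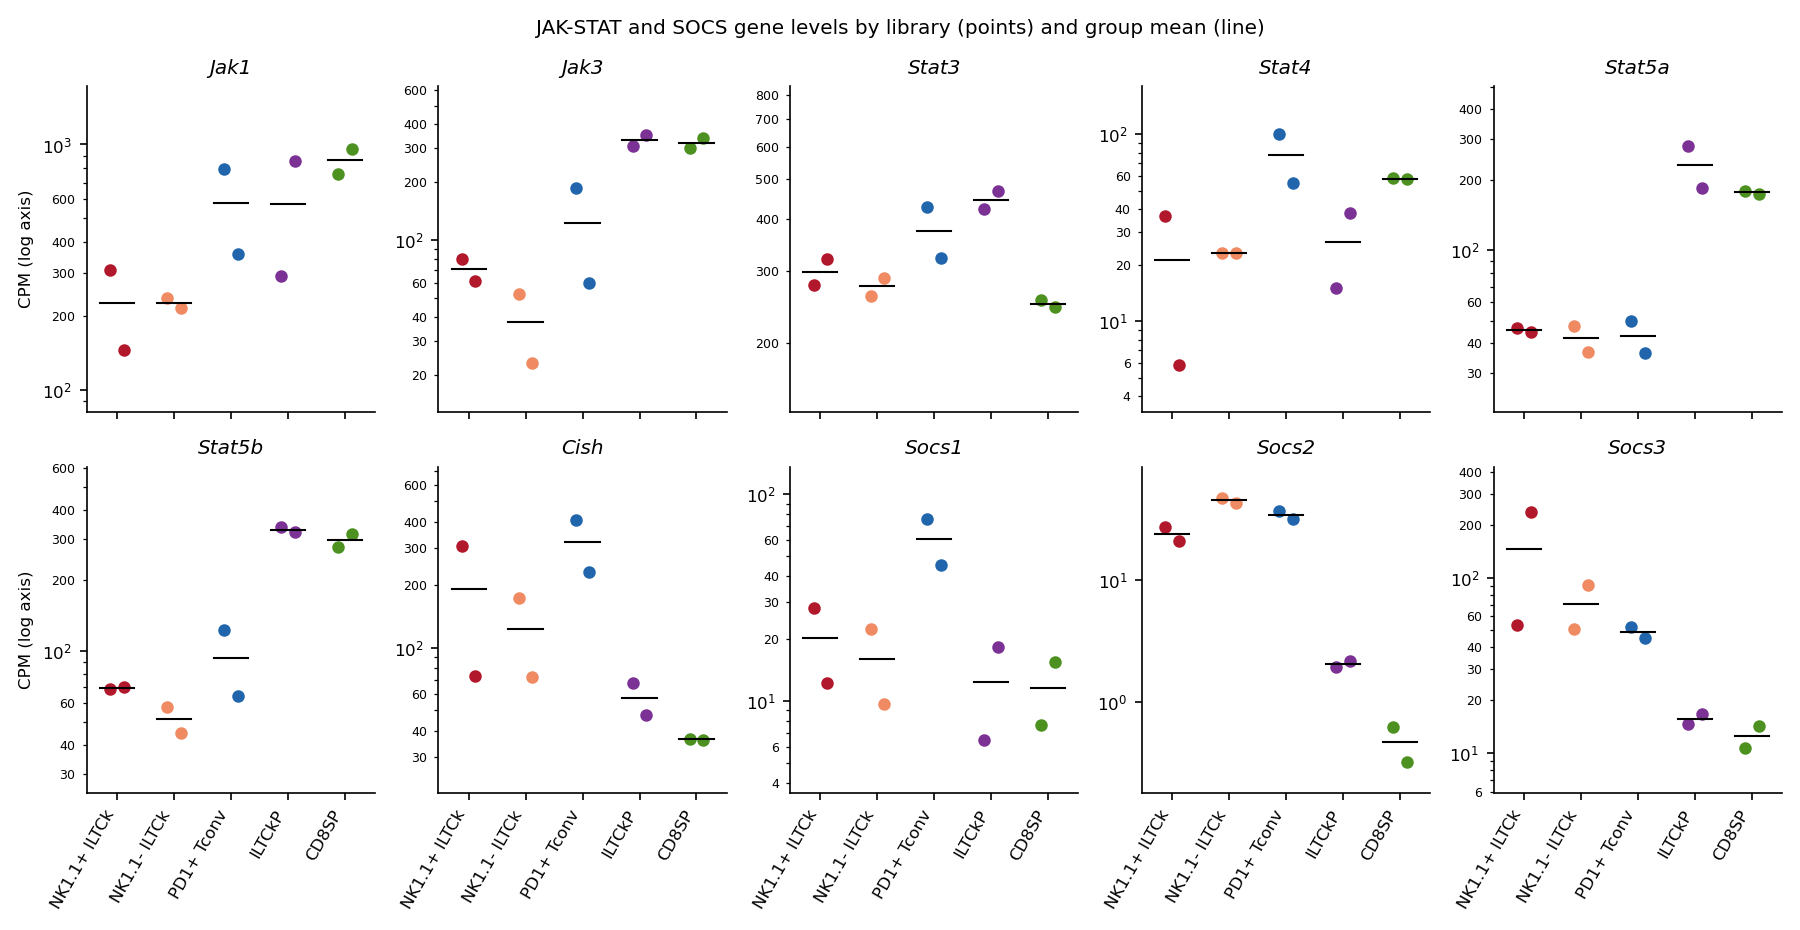
Level of each gene (CPM, log axis, a separate range per panel) in the 10 libraries. Points are libraries and lines are means of 2. Jak3, Stat5a and Stat5b lie higher in the 4 thymic libraries (ILTCkP and CD8SP) than in the 6 tumour-table libraries, and Cish, Socs2 and Socs3 lie lower there.

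Between the tumour and thymic libraries Socs2 differed most of the 10 genes, with a tumour median 27.1 times the thymic one, against 4.81 times for Cish, 3.66 for Socs3 and 2.18 for Socs1. For Socs2, NK1.1+ ILTCk had 27.5 and 20.9 CPM, NK1.1- ILTCk 48.0 and 43.5, PD1+ Tconv 37.5 and 31.8, ILTCkP 1.93 and 2.15, and CD8SP 0.620 and 0.316 CPM. Its lowest tumour-table library was 9.74 times its highest thymic one. Epithelium markers were also far higher in the tumour table, highest in NK1.1- ILTCk and lowest in PD1+ Tconv. The part of epithelium in the Socs2 level was not tested. For Socs3, NK1.1+ ILTCk had 53.9 and 238 CPM, NK1.1- ILTCk 50.9 and 91.1, PD1+ Tconv 52.5 and 45.0, ILTCkP 14.7 and 16.7, and CD8SP 10.7 and 14.3 CPM. The lowest tumour-table value was thus 2.69 times the highest thymic one, and NK1.1+ ILTCk replicate 2 stood far above the rest. For Cish, NK1.1+ ILTCk had 307 and 72.9 CPM, NK1.1- ILTCk 173 and 72.6, PD1+ Tconv 407 and 230.1, ILTCkP 67.5 and 47.3, and CD8SP 36.5 and 36.2 CPM. Tumour and thymic libraries again did not overlap, though the gap was only 1.08 times. Socs1 did not separate: it ranged from 9.67 to 75.4 CPM in the tumour table and from 6.42 to 18.1 CPM in the thymus.

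The γ-chain kinase gene and the STAT5 genes showed the opposite order, with tumour medians of 0.188 (Jak3), 0.252 (Stat5a) and 0.210 (Stat5b) times the thymic ones. Jak3 ranged from 23.0 to 186 CPM in the tumour table, against 302 to 351 CPM in the thymus. Stat5a ranged from 36.6 to 49.7 CPM in the tumour table, against 175 to 279 CPM in the thymus, so its lowest thymic library was 3.52 times its highest tumour one. Stat5b ranged from 44.7 to 123 CPM in the tumour table, against 278 to 338 CPM in the thymus. Jak1, which serves receptors beyond the gamma-chain family, overlapped (146 to 797 CPM against 290.1 to 961 CPM), as did Stat3 (261 to 429 against 245 to 468 CPM) and Stat4 (5.87 to 101 against 15.1 to 58.3 CPM). In all, 3 of the 10 genes had every tumour-table library above every thymic one and 3 had every one below. Of 18904 genes kept in either table, 23.7% lay wholly above and 17.5% wholly below. No test was made across the tables: each was scaled on its own, and tissue, mouse model and table cannot be told apart.

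Dividing by the T cell markers raised every gene in the tumour table relative to the thymus. Jak3, Stat5a and Stat5b then overlapped between tumour-table and thymic libraries. All 4 feedback genes lay wholly above the thymus, where 48.8% of all genes did. The summed T cell markers averaged 2314 CPM in the tumour table and 8355 CPM in the thymus. Taken as means of log2 values per library, dividing by them moved every gene in the tumour table up by 2.14 relative to the thymus. On that scale, per 1000 CPM of T cell markers, Jak3 spanned 20.0 to 100.3 in tumour and 30.0 to 50.1 in thymic libraries. Stat5a spanned 10.5 to 73.2 against 17.8 to 38.1, and Stat5b 21.3 to 115 against 27.6 to 46.1, so all of them overlapped. Socs2 spanned 7.96 to 39.9 in tumour libraries against 0.0351 to 0.306 in the thymus, Cish 66.7 to 119 against 3.63 to 9.20, Socs1 8.88 to 19.8 against 0.761 to 2.59, and Socs3 11.1 to 387 against 1.06 to 2.39. With Stat3 and Stat4, 6 of the 10 genes then lay wholly above the thymus and 0 below, where 48.8% and 0.973% of all genes did. The part of macrophage, gland and other cells in these levels was not tested.

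The first comparison within a table asked how thymic ILTCk progenitors differ from conventional CD8 thymocytes. None of the 10 genes passed edgeR's quasi-likelihood test at an adjusted p under 0.05, where 4.71% of 14634 genes did. At an unadjusted p under 0.05 there were 2, Stat3 and Socs2, where 22.1% of all genes passed. DESeq2 called 1, Stat3, and 13.6% of all genes, and limma-voom 0 and 5.25%. On simulated counts with the spread of this table, 44 of 159 DESeq2 calls were false, against 5 of 100 for edgeR. With no filter on low counts edgeR called 2, Stat3 and Stat4, and 10.8% of all genes. With the replicate number as a block it called the same 2 and 2212 genes in all. Stat3 came nearest. It stood at 423 and 468 CPM in ILTCkP and at 255 and 245 CPM in CD8SP, a log2 fold change of 0.83 ± 0.20 (SE; adjusted p = 0.0805, DESeq2 adjusted p = 0.0186). Its adjusted p was 0.000355 and 0.000587 with ILTCkP replicate 1 or 2 left out, and 0.608 and 0.721 with CD8SP replicate 1 or 2 left out. Socs2, at very low counts (49 and 70 in ILTCkP, 18 and 10 in CD8SP), gave 2.12 ± 0.72 (adjusted p = 0.165).

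The ILTCkP replicates differed in several members, Jak1 most. Jak1 stood at 290.1 and 860 CPM in ILTCkP, against 762 and 961 CPM in CD8SP (-0.58 ± 0.50, adjusted p = 0.534). Replicate 1 alone was low, by 2.96 times relative to replicate 2, although the T cell markers were alike in both. Fewer genes were detected in replicate 1, 17741 against 19625 in replicate 2. Stat4, the IL-12 factor gene, stood at 15.1 and 37.9 CPM in ILTCkP, against 58.3 and 57.7 CPM in CD8SP (-1.13 ± 0.47, adjusted p = 0.232). Both ILTCkP libraries lay below both CD8SP libraries. Cish stood at 67.5 and 47.3 CPM against 36.5 and 36.2 CPM (0.66 ± 0.29, adjusted p = 0.260), again without overlap. With ILTCkP replicate 2 left out edgeR called 5 members (Jak1 at -1.57, Stat3, Stat4 at -1.95, Stat5a and Cish) and 44.8% of all genes, and with replicate 1 left out only Stat3 and 17.9%, the lone progenitor library then being assumed to vary like CD8SP.

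Jak3, Stat5a, Stat5b, Socs1 and Socs3 gave log2 fold changes between 0.04 ± 0.21 and 0.39 ± 0.26, with adjusted p from 0.430 to 0.943. Libraries did not overlap in 7 of the 10 genes. ILTCkP was higher in 6 (Stat3, Stat5a, Stat5b, Cish, Socs2, Socs3), where 28.8% of all genes were, and lower in 1 (Stat4), where 29.3% were. The median log2 fold change was 0.24 over the 10 genes and 0.01 over all genes tested. The summed T cell markers averaged 7172 CPM in ILTCkP and 9537 CPM in CD8SP. Divided by them, 7 genes (Jak3 in addition) lay wholly above CD8SP and 1 below, where 47.4% and 13.3% of all genes did.

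**Figure D2:**
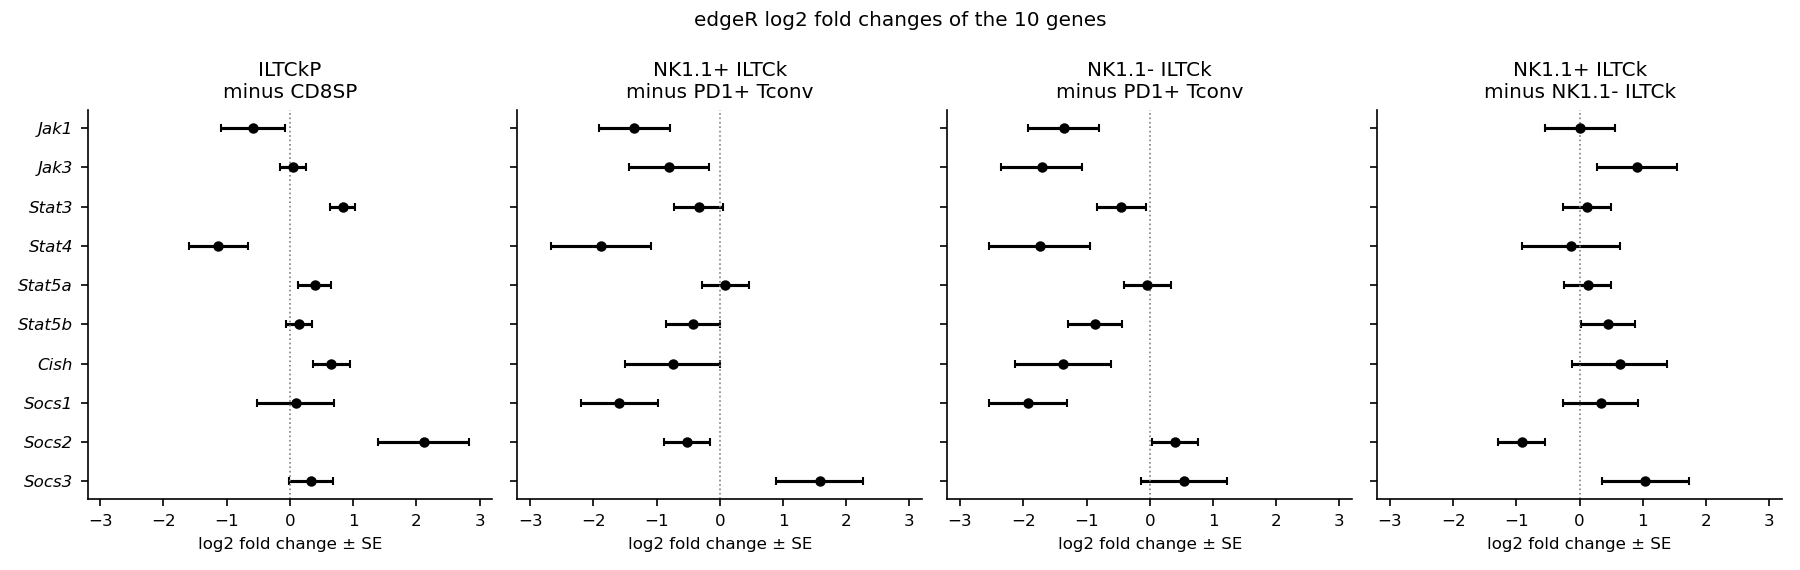
Log2 fold change of each gene by edgeR, with its standard error as the bar, in the 4 comparisons. Positive values are higher in the group named first above each panel. None of these values passed an adjusted p under 0.05. Against PD1+ Tconv, whose libraries both comparisons share, 8 of the 10 values are negative for either ILTCk group. Of all 18091 genes, 9317 are negative for NK1.1+ ILTCk and 9445 for NK1.1- ILTCk.

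In the tumour table, PD1+ Tconv had the higher CPM of most of the 10 genes, and also the highest T cell marker sums. Divided by those markers, as given below, fewer of the 10 lay below PD1+ Tconv. No difference passed the edgeR test as filtered here, with the replicate number left out of the fit. NK1.1+ ILTCk against PD1+ Tconv asked how killer innate-like cells differ from conventional tumour T cells. edgeR called 0 of the 10 genes, and 0% of 18091 genes, with 3 members at an unadjusted p under 0.05 (Jak1, Stat4, Socs1), where 14.3% of all genes were. DESeq2, which called 7.01% of all genes, and limma-voom, with 0.0166%, also called none of the 10. With no filter on low counts edgeR called 2, Stat4 and Socs3, and 3.91% of all genes. With the replicate number as a block it called 1, Socs1, and 755 genes in all, though the labels do not tie these numbers. On simulated counts with the spread of this table, edgeR without the block recovered 0 of 67 genes changed 4-fold. DESeq2 recovered 21 of 67, with 60 of its 129 calls over all folds false. The changed genes were not matched to the members' levels. A lack of calls therefore does not show equal levels. Socs1 stood at 28.2 and 12.1 CPM in NK1.1+ ILTCk, against 75.4 and 45.6 CPM in PD1+ Tconv (-1.59 ± 0.61, adjusted p = 0.314). Every NK1.1+ library lay below every PD1+ Tconv one. Stat4 stood at 36.6 and 5.87 CPM, against 100.8 and 55.2 CPM in PD1+ Tconv (-1.88 ± 0.80, adjusted p = 0.348), the low value being that of NK1.1+ replicate 2, which also had the fewest T cell markers. Jak1 stood at 308 and 146 CPM, against 797 and 359 CPM in PD1+ Tconv (-1.35 ± 0.56, adjusted p = 0.341).

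Socs3 was the 1 gene of the 10 whose NK1.1+ ILTCk libraries both lay above PD1+ Tconv. Its values were 53.9 and 238 CPM in NK1.1+ ILTCk, against 52.5 and 45.0 CPM in PD1+ Tconv (1.58 ± 0.69, adjusted p = 0.364). Without NK1.1+ replicate 2 the log2 fold change was 0.15. That library held 17685 CPM of macrophage markers, the highest sum of all, and the part of macrophages in its Socs3 level was not tested. Cish (-0.75 ± 0.75), Jak3 (-0.80 ± 0.63), Stat5b (-0.42 ± 0.42), Stat3 (-0.33 ± 0.38), Socs2 (-0.52 ± 0.36) and Stat5a (0.09 ± 0.37) had adjusted p from 0.577 to 0.944. In all, 1 gene lay wholly above PD1+ Tconv and 5 wholly below (Jak1, Stat3, Stat4, Socs1, Socs2), where 20.7% and 20.8% of all genes did. The median was -0.63 over the 10 genes and -0.04 over all genes.

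**Figure D3:**
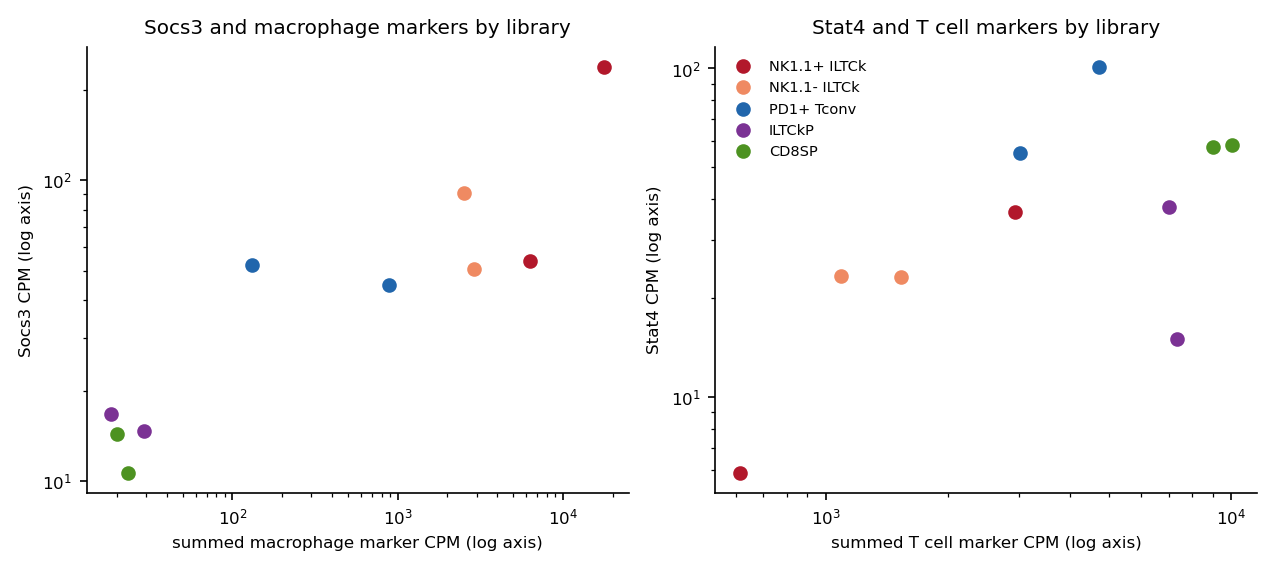
Left, Socs3 CPM against the summed CPM of 10 macrophage markers in each library; right, Stat4 CPM against the summed CPM of 7 T cell markers (log axes). NK1.1+ ILTCk replicate 2 has both the highest macrophage sum (17685 CPM) and the highest Socs3 (238 CPM), and the lowest T cell sum (613 CPM) and the lowest Stat4 (5.87 CPM).

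NK1.1- ILTCk were set against the same PD1+ Tconv libraries, so the values of both comparisons are not independent. None of the 10 genes passed in edgeR, as for 0% of all genes, and 3 (Jak1, Jak3, Socs1) had an unadjusted p under 0.05, as did 11.9% of all genes. DESeq2 and limma-voom called 0 of the 10 too, with 3.91% and 0% of all genes called. With no filter edgeR called 3 (Jak3, Stat4, Socs1) and 2.5% of all genes. With the replicate number as a block it called 1, Socs1, and 298 genes in all. Socs1 stood at 22.2 and 9.67 CPM in NK1.1- ILTCk, against 75.4 and 45.6 CPM in PD1+ Tconv (-1.92 ± 0.61, adjusted p = 0.361, DESeq2 adjusted p = 0.0730). Jak3 stood at 52.4 and 23.0 CPM, against 186 and 60.3 CPM in PD1+ Tconv (-1.71 ± 0.64, adjusted p = 0.394). Its PD1+ Tconv replicates differed 3.09 times, more than any other member in that group. Stat4 stood at 23.3 and 23.4 CPM, against 100.8 and 55.2 CPM in PD1+ Tconv (-1.74 ± 0.79, adjusted p = 0.437), and Jak1 at 236 and 215 CPM, against 797 and 359 CPM (-1.36 ± 0.56, adjusted p = 0.412).

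Cish stood at 173 and 72.6 CPM in NK1.1- ILTCk, against 407 and 230.1 CPM in PD1+ Tconv (-1.38 ± 0.76, adjusted p = 0.506), and Stat5b at 57.7 and 44.7 CPM, against 123 and 64.2 CPM (-0.87 ± 0.42, adjusted p = 0.461). Stat3 stood at 261 and 289 CPM against 429 and 322 CPM (-0.45 ± 0.38, adjusted p = 0.668), and Socs3 at 50.9 and 91.1 CPM against 52.5 and 45.0 CPM (0.54 ± 0.68, adjusted p = 0.786). Stat5a stood near the same level in both groups (47.4 and 36.7 CPM against 49.7 and 36.6 CPM; -0.04 ± 0.37). Socs2 was the 1 gene wholly above PD1+ Tconv, at 48.0 and 43.5 CPM against 37.5 and 31.8 CPM (0.40 ± 0.36, adjusted p = 0.685). In 7 of the 10 genes (all but Stat5a, Socs2 and Socs3) NK1.1- ILTCk lay wholly below PD1+ Tconv, where 22.7% of all genes did, against 23.1% wholly above. The median was -1.11 over the 10 genes and -0.04 over all genes.

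Divided by the T cell markers, fewer of the 10 genes lay below PD1+ Tconv. The T cell markers averaged 1772 CPM in NK1.1+ ILTCk and 1312 CPM in NK1.1- ILTCk, against 3859 CPM in PD1+ Tconv. Taken as means of log2 values per library, dividing by them moved every gene up relative to PD1+ Tconv, by 1.49 for NK1.1+ ILTCk and by 1.54 for NK1.1- ILTCk. Per 1000 CPM of T cell markers, NK1.1+ ILTCk had 9.61 and 19.8 of Socs1, NK1.1- ILTCk 14.5 and 8.88, and PD1+ Tconv 16.01 and 15.1, so NK1.1- ILTCk alone stayed below. The Jak1 groups overlapped, with NK1.1+ ILTCk at 105 and 238, NK1.1- ILTCk at 154 and 198, and PD1+ Tconv at 169 and 119. Stat4 stayed low in NK1.1+ ILTCk, at 12.5 and 9.56, with NK1.1- ILTCk at 15.2 and 21.4 and PD1+ Tconv at 21.4 and 18.3. For Socs2, NK1.1+ ILTCk had 9.38 and 34.1, NK1.1- ILTCk 31.3 and 39.9, and PD1+ Tconv 7.96 and 10.6.

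On this scale 3 genes (Stat5a, Cish, Socs3) lay wholly above PD1+ Tconv in NK1.1+ ILTCk and 1 (Stat4) below, where 42.7% and 3.7% of all genes did. For NK1.1- ILTCk 5 (Stat3, Stat5a, Stat5b, Socs2, Socs3) lay above and 1 (Socs1) below, where 72.4% and 2.09% of all genes did. The part of macrophages and other cells, and of T cell marker levels per cell, was not tested.

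**Figure D4:**
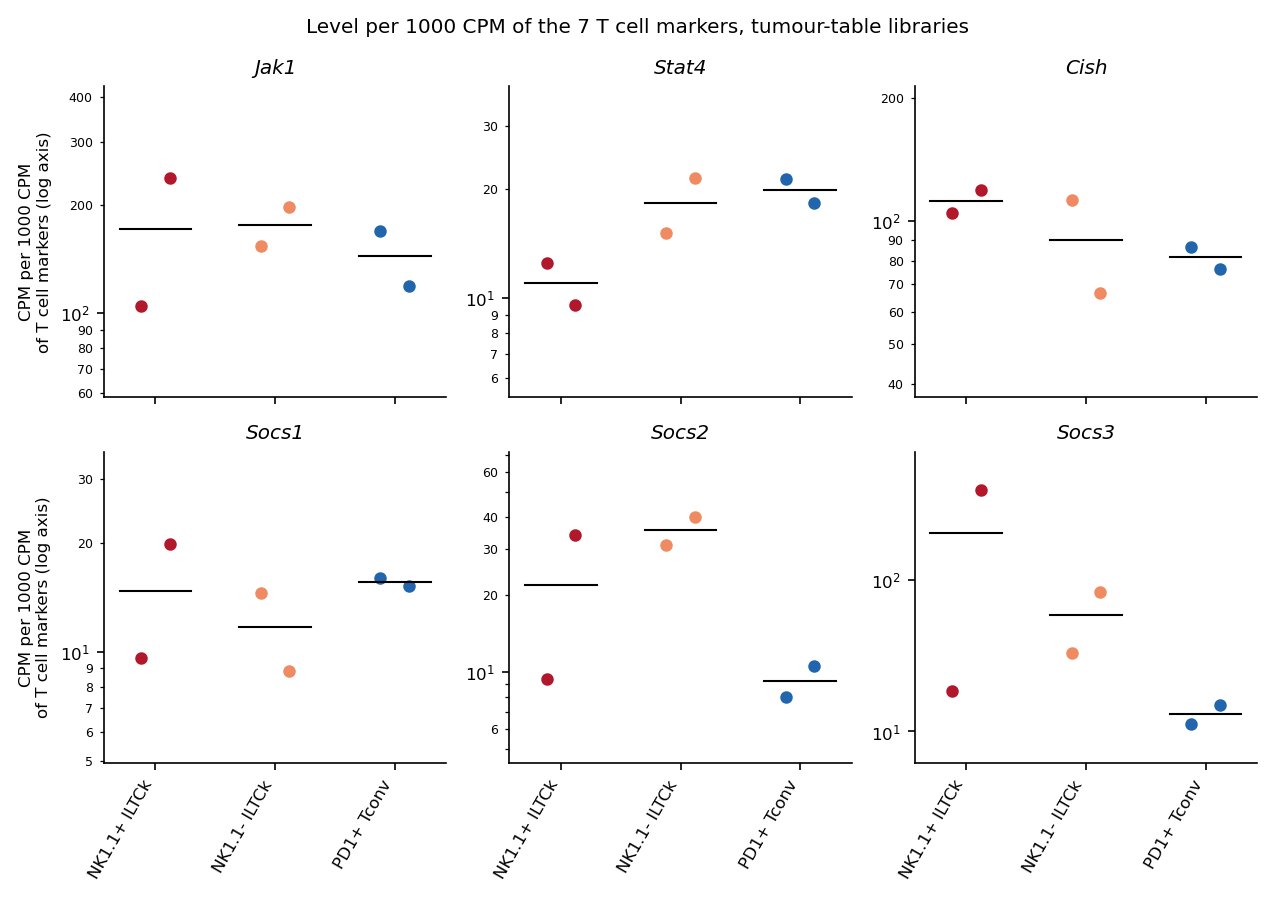
Level of 6 genes per 1000 CPM of the summed T cell markers in the 6 tumour-table libraries (log axes; points are libraries, lines are means of 2). The Jak1 groups overlap, NK1.1+ ILTCk lie lowest in Stat4, and NK1.1- ILTCk lie below PD1+ Tconv in Socs1 and above them in Socs2.

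NK1.1+ against NK1.1- ILTCk is also the test of whether the 2 comparisons above differ. edgeR called 0 of the 10 genes and 0% of all genes, with 1 member, Socs2, at an unadjusted p under 0.05, where 3.94% of all genes were. DESeq2 and limma-voom called none of the 10, and 0.315% and 0% of all genes, and edgeR with no filter none of the 10 and 0.523%. Socs2 stood at 27.5 and 20.9 CPM in NK1.1+ ILTCk, against 48.0 and 43.5 CPM in NK1.1- ILTCk (-0.92 ± 0.36, adjusted p = 1.00). Its libraries did not overlap, and it kept its sign with each library left out (-1.13 to -0.74). Per T cell marker, however, NK1.1+ replicate 2 lay among the NK1.1- values. Jak3 stood at 79.8 and 61.5 CPM in NK1.1+ ILTCk, against 52.4 and 23.0 CPM in NK1.1- ILTCk (0.90 ± 0.63), and Stat5b at 69.3 and 70.4 CPM, against 57.7 and 44.7 CPM (0.45 ± 0.42), both without overlap. Socs3 gave 1.04 ± 0.68, and -0.40 without NK1.1+ replicate 2. The remaining 6 genes (Jak1, Stat3, Stat4, Stat5a, Cish, Socs1) lay between -0.14 ± 0.77 (Stat4) and 0.63 ± 0.75 (Cish). Thus 2 genes lay wholly above and 1 wholly below, where 18.6% and 18.9% of all genes did, and the medians were 0.23 over the 10 genes and 0.01 over all. Divided by the T cell markers, 0 lay above and 1 (Stat4) below, where 3.92% and 10.7% of all genes did.

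Calls by edgeR in other parts of the pathway came from the thymic comparison alone. The gene lists were chosen with earlier results of these data known, so their counts beside the share of all genes are a description and no test. Of 18 receptor chain genes 2 rose and 1 fell in ILTCkP, where edgeR called 4.71% of all genes (median log2 fold change -0.19, against 0.01 over all genes). Il2rb, the β chain for IL-2 and IL-15, rose to 5310 and 4804 CPM in ILTCkP, against 435 and 444 CPM in CD8SP (3.52 ± 0.22, adjusted p = 0.00329). Il12rb2, the IL-12 receptor chain that docks STAT4, rose to 25.1 and 16.9 CPM against 3.93 and 3.13 CPM (2.57 ± 0.40, adjusted p = 0.0268). Il6ra, the ligand-binding IL-6 receptor chain, fell to 1.34 and 0.613 CPM against 14.1 and 17.5 CPM (-4.02 ± 0.54, adjusted p = 0.0179). Of 13 other negative regulators Pias3, which encodes an inhibitor of STAT3, rose to 43.2 and 30.9 CPM against 8.34 and 8.54 CPM (2.13 ± 0.34, adjusted p = 0.0271).

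None of 9 cytokine-induced target genes passed in ILTCkP by edgeR (5 at an unadjusted p under 0.05, where 22.1% of all genes were; median 0.27, against 0.01 over all genes). The nearest were Osm, which encodes a cytokine induced by STAT5 (46.1 and 41.5 CPM in ILTCkP, 20.8 and 19.3 in CD8SP; 1.13 ± 0.28, adjusted p = 0.0875), and the survival gene Mcl1 (32.8 and 43.9 against 78.6 and 83.3 CPM; -1.08 ± 0.27, adjusted p = 0.0880). DESeq2, which called 13.6% of all genes, called both (adjusted p = 0.00636 for Osm and 0.00974 for Mcl1). On simulated counts, however, 44 of its 159 calls in this comparison were false. Of 11 ligand genes 2 were expressed enough to test, and Il4 was called at low levels (2.13 and 1.41 CPM in ILTCkP, 0.0689 and 0.0316 in CD8SP, adjusted p = 0.0438).

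In the tumour table edgeR called none of these genes in any comparison, as for all genes. DESeq2 adjusted p-values stand beside some of them. On simulated counts 60 of 129 DESeq2 calls were false for NK1.1+ ILTCk against PD1+ Tconv. The values given here and in the next paragraph were not divided by the T cell markers. That step moves every log2 value against PD1+ Tconv up by 1.49 for NK1.1+ ILTCk and by 1.54 for NK1.1- ILTCk, taken as means per library. In NK1.1+ ILTCk against PD1+ Tconv the lowest p among receptor chains was that of Il7r (9.92 and 9.88 CPM against 43.3 and 42.6 CPM; -2.12 ± 0.38, adjusted p = 0.106, DESeq2 3.67e-05). Il4ra followed, at 159 and 610 CPM against 135 and 49.7 CPM (2.06 ± 0.76, adjusted p = 0.302). Its high value was that of NK1.1+ replicate 2, which held 17685 CPM of macrophage markers, and the part of macrophages was not tested. Among the ligands Ifng stood at 8.27 and 5.73 CPM in NK1.1+ ILTCk, against 76.3 and 62.6 CPM in PD1+ Tconv (-3.31 ± 0.44, adjusted p = 0.0779, DESeq2 1.22e-09). Il12b held 2.64 and 1.81 CPM, against 0.0956 and 0 CPM in PD1+ Tconv. These levels are low, and the part of dendritic cells and macrophages in them was not tested. Jak2, another Janus kinase gene, gave -1.84 ± 0.80 (adjusted p = 0.364). Among targets Ccnd2, a cell cycle gene, stood at 141 and 49.9 CPM against 407 and 549 CPM (-2.32 ± 0.57, adjusted p = 0.176), and Osm gave 2.11 ± 0.69 (adjusted p = 0.258). Osm stood at 28.8 and 63.5 CPM in NK1.1+ ILTCk, against 5.29 and 16.2 CPM. The part of macrophages in its level was not tested. Of the negative regulators Socs6 gave 1.06 ± 0.46 and Socs7 -1.09 ± 0.50 (adjusted p = 0.362 and 0.385).

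In NK1.1- ILTCk against PD1+ Tconv the nearest receptor chains were Il10ra (52.8 and 28.9 CPM against 293 and 145 CPM; -2.43 ± 0.52, adjusted p = 0.344, DESeq2 0.00200) and Il12rb1 (-1.77 ± 0.65, adjusted p = 0.391). Ifng gave -1.70 ± 0.41, Tyk2 -1.24 ± 0.54, Ccnd2 -1.80 ± 0.56, Pim1 -1.53 ± 0.50, Ptpn11 -0.998 ± 0.35 and Socs5 1.25 ± 0.43, with adjusted p from 0.351 to 0.426. Il12b held 3.22 and 1.28 CPM, against 0.0956 and 0 CPM in PD1+ Tconv, and the part of dendritic cells and macrophages was again not tested. In NK1.1+ against NK1.1- ILTCk Il7r stood at 9.92 and 9.88 CPM, against 31.8 and 43.3 CPM (-1.92 ± 0.38, adjusted p = 1.00, DESeq2 0.00519). Ifng gave -1.61 ± 0.42, Il10ra 1.802 ± 0.51, Il10 3.21 ± 1.00, Osm 1.64 ± 0.68, Pim1 1.04 ± 0.49, Sh2b3 1.09 ± 0.47, Ptpn1 0.83 ± 0.41, Stat2 0.87 ± 0.52 and Stat6 0.72 ± 0.46, all with an adjusted p of 1.00. Il10 stood at 4.87 and 41.7 CPM in NK1.1+ ILTCk, against 2.48 and 2.55 CPM in NK1.1- ILTCk. The high value was that of NK1.1+ replicate 2, the library with the most macrophage markers, whose part was not tested. Osm was also highest in that library, at 63.5 CPM.

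The genes most alike in pattern were found by the root mean square distance of log2(CPM + 1), centred on each gene's mean over the 10 libraries. The search covered 9331 genes with a mean of at least 10 CPM. The 10 members, receptor and immunoglobulin segments, mitochondrial genes, and predicted or clone-named genes were left out. Socs2 was nearest to Ell2 (0.33), Car5b (0.36) and Stk39 (0.39), and Socs3 to Nfkbiz (0.35), Serpinb6a (0.39) and Pld2 (0.41). Cish was nearest to Ppm1j (0.39), Samd3 (0.43) and Gfi1 (0.45), and Socs1 to St8sia4 (0.28), Ccdc92 (0.37) and Gng2 (0.41). Stat4 was nearest to Gbp8 (0.29), Gbp4 (0.31) and Ccdc82 (0.33). These distances are on the log2 scale, where the members' own spread about their mean was 1.02 (Socs1) to 2.03 (Socs2), and all of them reflect the same libraries with the cell mixtures given above.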

How the data were processed

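The levels came from 2 tables of raw counts per gene symbol that the authors deposited, 1 with the 4 thymic libraries and 1 with the 6 others. Per the submitters' processing notes the genome build was mm10 and the authors used DESeq, with no version stated. The aligner is not given in the sources used here. Neither is the counter, nor the annotation.

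Each table was fitted on its own. Genes were kept with filterByExpr (14634 thymic and 18091 tumour-table genes), libraries were scaled with TMM, and edgeR 4.0.16's quasi-likelihood test (glmQLFit, robust) gave log2 fold changes, standard errors (the size of the log2 fold change divided by the root of F) and Benjamini-Hochberg adjusted p-values over all genes tested. Calls needed an adjusted p under 0.05. The 3 tumour-table groups shared 1 estimate of the spread. Levels are CPM scaled by TMM. Exon lengths and positions came from GENCODE M21 on GRCm38. Alternatives were RLE and upper-quartile scaling, no filter, at least 50 counts in 2 libraries, DESeq2 1.42.0, limma-voom (limma 3.58.1), the replicate number as a block, the compared libraries alone, and each library left out. Division by the T cell markers was added after the data were seen.

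The members and all gene lists were chosen with earlier results of these data known. All 10 members are named in every comparison. Of each pathway list the text names the called genes, at most 4, or otherwise the 2 with the smallest p; 1 gene that this rule names is not reported here. The scripts were tested on simulated data, with changed genes not matched to the members' levels. For NK1.1+ ILTCk against PD1+ Tconv, edgeR recovered 0 of 67 genes changed 2-fold and 0 of 67 changed 4-fold. It recovered 10 of 66 changed 8-fold. For ILTCkP against CD8SP it recovered 4 of 66, 40 of 67 and 51 of 66 at the same folds. Of the edgeR calls, 3 of 13 were false in the tumour comparison and 5 of 100 in the thymic one. DESeq2 recovered more, but 60 of its 129 and 44 of its 159 calls were false.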

Additional observations from a re-analysis of the deposited data

How the results depend on the processing

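Each of the 10 genes held at least 130 counts in every library except Socs2 in the thymus. Of 469 log2 fold changes of the 10 genes under an alternative, 424 kept their sign and their side of the threshold, 18 passed it and 27 changed sign.

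In ILTCkP against CD8SP, where edgeR called 0 members and 689 genes, no filter on low counts gave 2 members (Stat3, Stat4) and 2535 genes, DESeq2 1 (Stat3) and 1997, and the replicate block 2 (Stat3, Stat4) and 2212. In NK1.1+ ILTCk against PD1+ Tconv, with 0 and 0, no filter gave 2 members (Stat4, Socs3) and 1249 genes, the replicate block 1 (Socs1) and 755, DESeq2 1269 genes and limma-voom 3. In NK1.1- ILTCk against PD1+ Tconv no filter gave 3 members (Stat4, Jak3, Socs1) and 799 genes, the replicate block 1 (Socs1) and 298, and DESeq2 708 genes. In NK1.1+ against NK1.1- ILTCk no filter gave 167 genes and DESeq2 57. The cause was not tested. Leaving out each library gave 0 to 5 members and 592 to 7017 genes in the thymic comparison (2812 genes without ILTCkP replicate 1, 7017 without its replicate 2). It gave 0 members in the others, with 0 to 35 genes in NK1.1+ ILTCk against PD1+ Tconv (35 without NK1.1+ replicate 1) and 0 in the remaining 2.

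Samples with the same replicate number deviated together across genes (Pearson 0.192 in the thymic table, 0.364 to 0.408 in the tumour table), but the labels do not tie the numbers, and 2 numbers are too few to show a pairing. With the block Socs1 against PD1+ Tconv was -1.67 in NK1.1+ ILTCk (adjusted p = 0.0437) and -2.00 in NK1.1- ILTCk (adjusted p = 0.0446). Under the replicate block Socs1 in ILTCkP turned to -0.0053, and upper-quartile scaling turned Stat5a in NK1.1- ILTCk against PD1+ Tconv to 0.079. Jak1 in NK1.1+ against NK1.1- ILTCk, 0.01 as reported, was -0.00094 with RLE, -0.070 with upper-quartile scaling, -0.0073 with no filter, -0.0044 with at least 50 counts, -0.00094 with DESeq2, -0.089 with limma-voom and -0.12 with the replicate block.

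With each library left out, the values that changed sign ranged in ILTCkP against CD8SP from -1.57 to 0.0055 (Jak1, turned without ILTCkP replicate 1), -0.053 to 0.14 (Jak3) and -0.85 to 0.68 (Socs1), both turned without ILTCkP replicate 2 or CD8SP replicate 1. In NK1.1+ ILTCk against PD1+ Tconv they ranged from -1.43 to 0.25 (Jak3) and -0.84 to 0.14 (Stat5b), both turned without PD1+ Tconv replicate 1, and -0.15 to 0.34 (Stat5a, without PD1+ Tconv replicate 2). In NK1.1- ILTCk against PD1+ Tconv they ranged from -0.25 to 0.22 (Stat5a, without NK1.1- replicate 2 or PD1+ Tconv replicate 1). In NK1.1+ against NK1.1- ILTCk they ranged from -0.63 to 0.45 (Jak1) and -0.40 to 1.06 (Socs1), both turned without NK1.1+ replicate 1 or NK1.1- replicate 2, and -0.75 to 1.39 (Cish, without NK1.1+ replicate 1). They ranged from -1.99 to 0.65 (Stat4) and -0.40 to 1.74 (Socs3) without NK1.1+ replicate 2 at the turned end, and from -0.083 to 0.32 (Stat5a, without NK1.1- replicate 2). The count of members whose tumour-table and thymic libraries did not overlap was 6 with TMM and 6 with RLE.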
